A study of Caenorhabditis elegans with 8 samples.

Results

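The 30 genes described here encode the folding and secretion machinery of the endoplasmic reticulum, among 17826 genes measured in whole Caenorhabditis elegans exposed to zidovudine or to its vehicle. They were chosen by name and fall into 7 roles: stress sensors and transducers, chaperones, disulfide formation, degradation of misfolded proteins, protein targeting with translocation and signal peptide cleavage, N-glycosylation, and phospholipid synthesis. All 30 were found under their symbols, and all 30 had an average level of 0 log2 CPM or more (CPM is the reads of a gene scaled to a common library size), the minimum for the 12382 genes tested.

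Wild-type N2 worms in larval stage 4 were transferred to plates with DMSO, the vehicle, or with 50 µM zidovudine, a thymidine analogue used as an antiretroviral drug. They were harvested after 24 h, as adults of day 1. The treatment protocol, worded alike for every sample, also names 5-fluorouracil, a pyrimidine analogue, in the plates; it does not say separately for each group that the compound was there. Each group had 4 whole-worm libraries, called DMSO 1 to 4 and zidovudine 1 to 4 below. Whether they came from separate cultures is not stated in the labels, and the p-values then cover only the spread among these libraries, which may be technical.

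Proteins that are secreted or placed in membranes enter the endoplasmic reticulum through the translocon, lose their signal peptide, receive N-glycans and fold with the help of chaperones and disulfide isomerases; those that fail are sent back to the cytosol for degradation. When unfolded proteins accumulate, the sensors IRE-1, PEK-1 and ATF-6 start the unfolded protein response, which in many animals raises the mRNAs of chaperones such as the worm BiP homologues HSP-3 and HSP-4. In C. elegans this response is active during larval development and in the intestine, a tissue that makes large amounts of secreted yolk protein in the adult.

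The libraries held 30449021 to 56930820 reads assigned to genes, and the members took 495 to 54334 reads each. DMSO 4 was sequenced on a flow cell of its own. That library and its flow cell cannot be told apart, and values given without DMSO 4 are values within 1 flow cell. DMSO 4 had 0 reads for 8.24% of the genes, against 1.07% to 2.17% in the others. Markers of intestine, body wall muscle, pharynx, hypodermis, neurons, germ line and sperm were all present, and none of those found in the table was at 0 reads in every library. These are bulk samples, in which fewer cells of a type and less RNA per cell cannot be told apart.

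The members covered a wide range of transcript levels per exon length. The calreticulin gene crt-1, a calcium-binding lectin chaperone, was the highest at 619 CPM per kb of exon (mean of the 8 log2 values, as for the other levels here), above 98.8% of the genes tested. The disulfide isomerase pdi-3 followed at 408 CPM per kb, then the signal peptidase subunit gene spcs-2 at 249 and pdi-2 at 237. The BiP genes hsp-3 and hsp-4 stood at 196 and 161 CPM per kb. The lowest levels were those of atf-6 at 7.42, the choline kinase gene ckb-2 at 13.7, dnj-27 at 15.4, pek-1 at 18.2 and dnj-7 at 24.9 CPM per kb. Among the sensors and transducers, xbp-1 was at 151.7 and ire-1 at 62.1 CPM per kb.

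**Figure D1:**
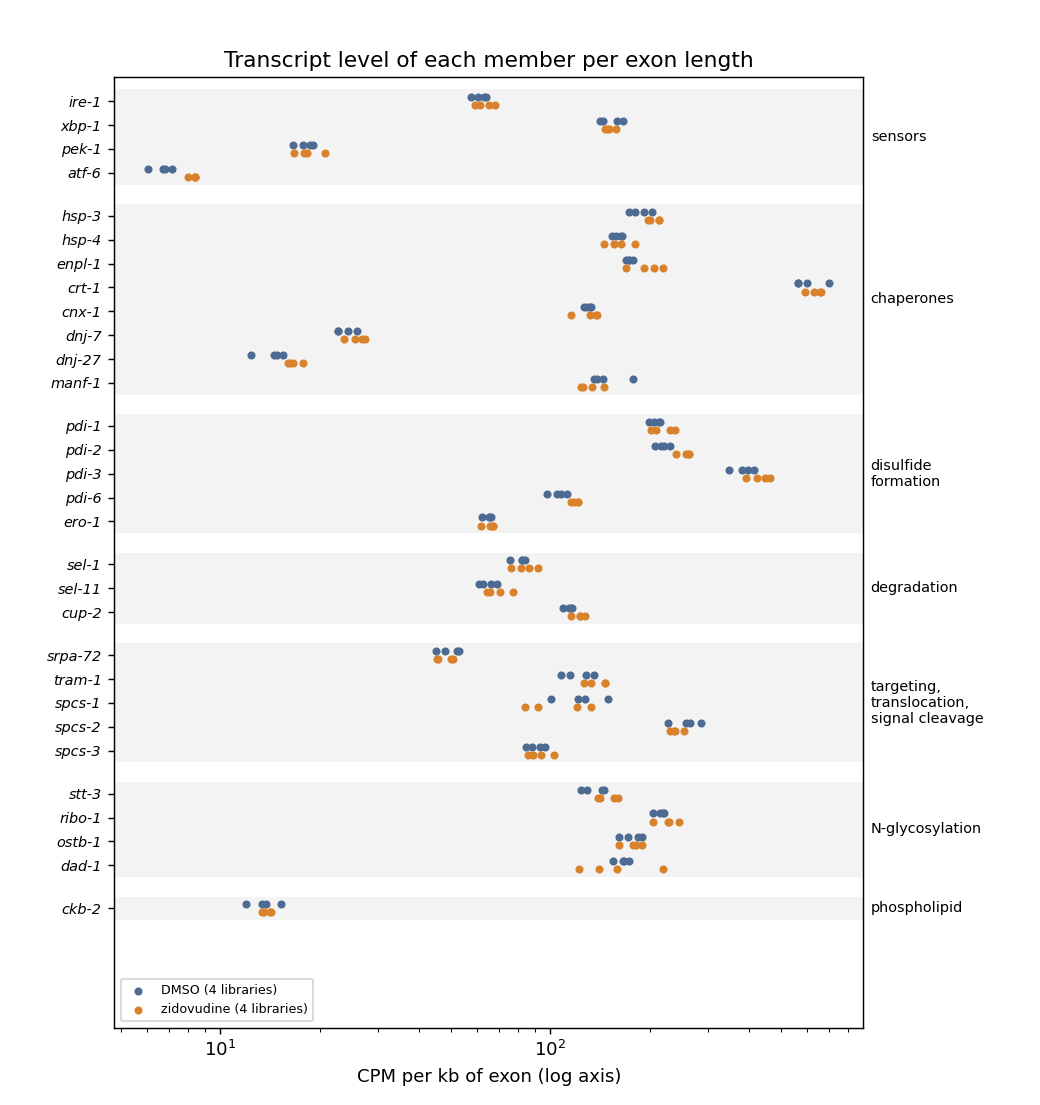
Transcript level of each of the 30 members, in CPM per kb of exon on a log axis, with 1 point per library (blue, 4 DMSO; orange, 4 zidovudine) and members grouped by role. crt-1 is at the upper end at 619 CPM per kb and atf-6 at the lower end at 7.42, and the differences between genes are far larger than those between the groups.

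No member passed the test across all genes. Of the 12382 genes tested, 0.0565% were called higher and 0.113% lower with zidovudine (limma, adjusted p under 0.05), and of the 30 members 0 were called in either direction, with adjusted p from 0.182 to 0.976. At an unadjusted limma p under 0.05, 7 members lay above 0 and 0 below, where 6.28% and 5.48% of all genes tested did. Those 7 were pdi-2, atf-6, pdi-6, dnj-27, tram-1, enpl-1 and pdi-3. In 4 of them, pdi-2, atf-6, pdi-6 and dnj-27, all zidovudine libraries lay above all DMSO libraries, as in 3.84% of the genes tested, and in 0 members did they all lie below, against 2.82%. Within 1 flow cell, without DMSO 4, 6 members were above 0 at an unadjusted limma p under 0.05 (5.02% of all genes). In 5 members all zidovudine libraries then lay above all DMSO libraries (5.21%), and in 0 below (4.35%). The count of 7 became 4 without DMSO 1 (5.65% of all genes), zidovudine 1 (4.69%), zidovudine 3 (3.83%) or zidovudine 4 (4.27%), each left out alone. The count of 0 below at that p became 2 without DMSO 1 (4.96% of all genes). It became 1 without DMSO 3 (6.31%) and 3 without zidovudine 2 (10.1%). Without zidovudine 2, the count of 4 wholly above DMSO became 7 (8.46%), and 1 member lay wholly below (8.02%). In all, 24 members had a log2 fold change (zidovudine minus DMSO, also below) above 0 and 6 below, where 52.3% of all genes were above 0. Their median log2 fold change was 0.060, against 0.0082 for all genes tested, and the values ran from -0.23 for spcs-1 to 0.31 for atf-6.

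The members varied little between libraries of a group. The median of their SD within groups was 0.097 log2 CPM, against 0.15 for all genes tested, from 0.050 for ero-1 to 0.28 for spcs-1. The comparison was not matched on transcript level. The members had at least 495 reads in a library, while the genes tested averaged 0 log2 CPM or more. Together they took 0.697% to 0.727% of the reads in the DMSO libraries, and 0.764%, 0.702%, 0.753% and 0.766% in zidovudine 1 to 4. Zidovudine 2 thus lay within the DMSO range and the other 3 zidovudine libraries above it. The median deviation of the members from their DMSO means was 0.019, -0.016, 0.11 and 0.14 log2 in zidovudine 1 to 4, and -0.037 to 0.039 in the DMSO libraries. By this measure zidovudine 1 and 2 lay within the DMSO range and zidovudine 3 and 4 above it.

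**Figure D2:**
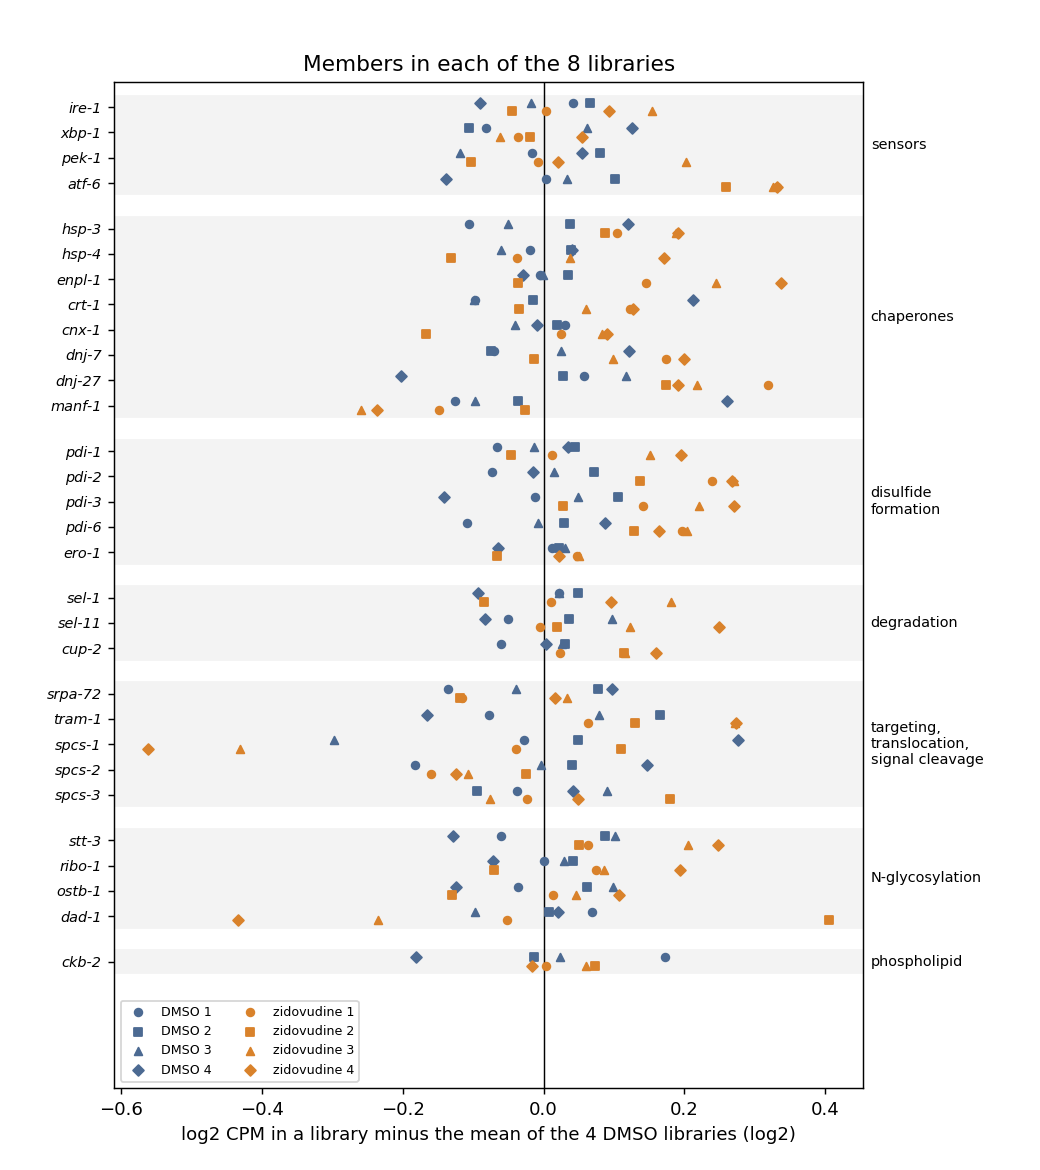
Level of each member in each of the 8 libraries, as log2 CPM minus the mean of the 4 DMSO libraries, with blue symbols for DMSO and orange for zidovudine and 1 symbol shape per replicate number. In atf-6, pdi-2, pdi-6 and dnj-27 every orange symbol lies to the right of every blue symbol, and dad-1 and spcs-1 have the widest spread among zidovudine libraries.

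Among the sensors and transducers, atf-6 had the highest log2 fold change, and its difference from the other sensors was not tested. ATF-6 is a membrane-bound transcription factor that in mammals is cut and released under stress. atf-6 (WBGene00000222; chromosome X, 12480948 to 12484904 in WBcel235) was at 4.00, 4.102, 4.03 and 3.86 log2 CPM in DMSO 1 to 4 and at 4.33, 4.26, 4.33 and 4.33 in zidovudine 1 to 4. The groups did not overlap, and the zidovudine libraries lay closer together than the DMSO libraries. The group means were 4.00 ± 0.10 and 4.31 ± 0.035 log2 CPM (SD, n = 4 each), a 1.24-fold difference. The log2 fold change was 0.31 (SE 0.090, 95% interval 0.12 to 0.50; limma unadjusted p = 0.00326, adjusted p = 0.191). Without DMSO 4 it was 0.27. atf-6 had 495 to 1183 reads per library.

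IRE-1 is a kinase and endoribonuclease that senses unfolded protein and splices the xbp-1 mRNA in the cytosol. ire-1 was at 7.74, 7.76, 7.68 and 7.61 log2 CPM with DMSO and at 7.70, 7.65, 7.85 and 7.79 with zidovudine, so the groups overlapped. Its log2 fold change was 0.052 (SE 0.064, 95% interval -0.085 to 0.19; limma adjusted p = 0.760). xbp-1, which encodes the transcription factor made from the spliced mRNA, was at 7.70, 7.68, 7.85 and 7.91 with DMSO and at 7.75, 7.77, 7.72 and 7.84 with zidovudine. The zidovudine values lay inside the DMSO range, with a log2 fold change of -0.016 (95% interval -0.16 to 0.12; limma adjusted p = 0.944). A value per gene does not separate spliced from unspliced xbp-1 mRNA, so splicing was not measured here.

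PEK-1, the worm PERK homologue, is a kinase that lowers translation by phosphorylating the initiation factor eIF2 alpha. pek-1 was at 6.05, 6.14, 5.94 and 6.12 log2 CPM with DMSO and at 6.05, 5.96, 6.26 and 6.08 with zidovudine. The groups overlapped, with a log2 fold change of 0.028 (95% interval -0.13 to 0.19; limma adjusted p = 0.903). For ire-1, xbp-1 and pek-1 the intervals therefore reach at most 1.14-fold above DMSO, and 1.11-fold below it for xbp-1. Of the 4 sensors and transducers, 3 had a log2 fold change above 0 (median 0.040). With the length trend described below removed it was 1 of 4 (median -0.020).

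The chaperones had 7 of 8 log2 fold changes above 0, with a median of 0.092, or 0.15 without DMSO 4. With the length trend described below removed, 5 of 8 were above 0 and the median was 0.068. The J-domain gene dnj-27, whose product carries thioredoxin-like domains and in mammals (ERdj5) reduces disulfides of proteins to be degraded, had the smallest p of the role. It was at 5.21, 5.18, 5.27 and 4.95 log2 CPM with DMSO and at 5.47, 5.33, 5.37 and 5.35 with zidovudine. The groups did not overlap, and DMSO 4 was the lowest library. The log2 fold change was 0.22 (SE 0.081, 95% interval 0.052 to 0.40; limma unadjusted p = 0.0143, adjusted p = 0.291), and 0.16 without DMSO 4. dnj-27 lies on chromosome I (11877803 to 11887278).

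The BiP genes are hsp-3 and hsp-4. hsp-3 (chromosome X, 6089028 to 6092124) was at 8.85, 8.998, 8.91 and 9.08 log2 CPM with DMSO and at 9.06, 9.05, 9.15 and 9.15 with zidovudine. DMSO 4 lay among the zidovudine libraries and the other 3 DMSO libraries below them. Its log2 fold change was 0.14 (SE 0.069; limma unadjusted p = 0.0553, adjusted p = 0.435). hsp-4 (chromosome II, 7350112 to 7352645), the BiP gene most used as a reporter of the unfolded protein response in the worm, was at 8.46, 8.52, 8.42 and 8.52 with DMSO and at 8.44, 8.35, 8.52 and 8.65 with zidovudine. The zidovudine libraries lay on both sides of the DMSO libraries, and the log2 fold change of 0.0098 had a 95% interval of -0.14 to 0.16, or 1.10-fold lower to 1.12-fold higher (limma adjusted p = 0.969). Taken within each library, log2 CPM of hsp-4 minus that of hsp-3 was -0.39, -0.48, -0.49 and -0.56 with DMSO and -0.62, -0.70, -0.63 and -0.50 with zidovudine, so 3 zidovudine libraries lay below every DMSO library and zidovudine 4 among them. The pair are close paralogues, and how reads matching both were counted is not given in the sources used here, so the split between them is uncertain.

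enpl-1, which encodes the GRP94 homologue, an Hsp90 chaperone of the lumen, was at 8.82 to 8.88 log2 CPM with DMSO and at 8.99, 8.81, 9.09 and 9.18 with zidovudine. Zidovudine 2 was the lowest of all 8 libraries and the other 3 zidovudine libraries were the highest. The log2 fold change was 0.17 (SE 0.078; limma unadjusted p = 0.0408, adjusted p = 0.405). crt-1 was at 9.63, 9.71, 9.63 and 9.94 with DMSO and at 9.85, 9.69, 9.79 and 9.85 with zidovudine, with DMSO 4 above all other libraries and a log2 fold change of 0.069 (limma adjusted p = 0.743), or 0.14 without DMSO 4. The log2 fold changes of dnj-7, the p58IPK homologue, and of cnx-1, which encodes the membrane-bound lectin chaperone calnexin, were 0.11 and 0.0075. The only chaperone below 0 was manf-1, whose product is a small secreted protein of the lumen that protects against endoplasmic reticulum stress. It was at 6.58, 6.67, 6.61 and 6.97 with DMSO and at 6.56, 6.68, 6.45 and 6.47 with zidovudine, a log2 fold change of -0.17 (SE 0.085; limma unadjusted p = 0.0664, adjusted p = 0.457). DMSO 4 was its highest library, and without it the log2 fold change was -0.081.

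In disulfide formation all 5 members had a log2 fold change above 0, with a median of 0.16. Without DMSO 4 the median was 0.12, below that of the chaperones. With the length trend described below removed the median was 0.14, with 4 of 5 above 0. pdi-2 (WBGene00003963; chromosome X, 4524155 to 4526536) encodes a protein disulfide isomerase that is also the beta subunit of the collagen prolyl 4-hydroxylase, the enzyme that modifies cuticle collagens. It was at 8.63, 8.77, 8.71 and 8.68 log2 CPM with DMSO and at 8.94, 8.84, 8.97 and 8.97 with zidovudine. The groups did not overlap, and zidovudine 2 was the lowest of its group. The means were 8.70 ± 0.060 and 8.93 ± 0.063 (SD, n = 4 each), a 1.17-fold difference, with a log2 fold change of 0.23 (SE 0.064, 95% interval 0.092 to 0.37). With a limma unadjusted p of 0.00273 it ranked 186 of the 12382 genes tested, and its adjusted p was 0.182, the smallest among the members. Without DMSO 4 the log2 fold change was 0.22.

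pdi-6, another disulfide isomerase gene (chromosome X, 7066342 to 7068563), was at 7.33, 7.47, 7.43 and 7.53 log2 CPM with DMSO and at 7.64, 7.57, 7.64 and 7.60 with zidovudine. The groups did not overlap, but DMSO 4 and zidovudine 2 were close to each other. The log2 fold change was 0.17 (SE 0.060, 95% interval 0.045 to 0.30; limma unadjusted p = 0.0115, adjusted p = 0.281). pdi-3, whose product is closest to the mammalian ERp57, which works with the lectin chaperones, was at 9.35, 9.47, 9.41 and 9.22 with DMSO and at 9.50, 9.39, 9.58 and 9.63 with zidovudine. Only zidovudine 2 fell within the DMSO range, and the log2 fold change was 0.16 (SE 0.077; limma unadjusted p = 0.0482, adjusted p = 0.421), or 0.12 without DMSO 4. pdi-1 had a log2 fold change of 0.078 with overlapping groups. ero-1, which encodes the oxidase that recharges the isomerases, was at 6.78 to 6.88 with DMSO and 6.78 to 6.90 with zidovudine. Its log2 fold change was 0.013, with a 95% interval of -0.11 to 0.14 (limma adjusted p = 0.945). Whether it differed from the isomerase genes was not tested.

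**Figure D3:**
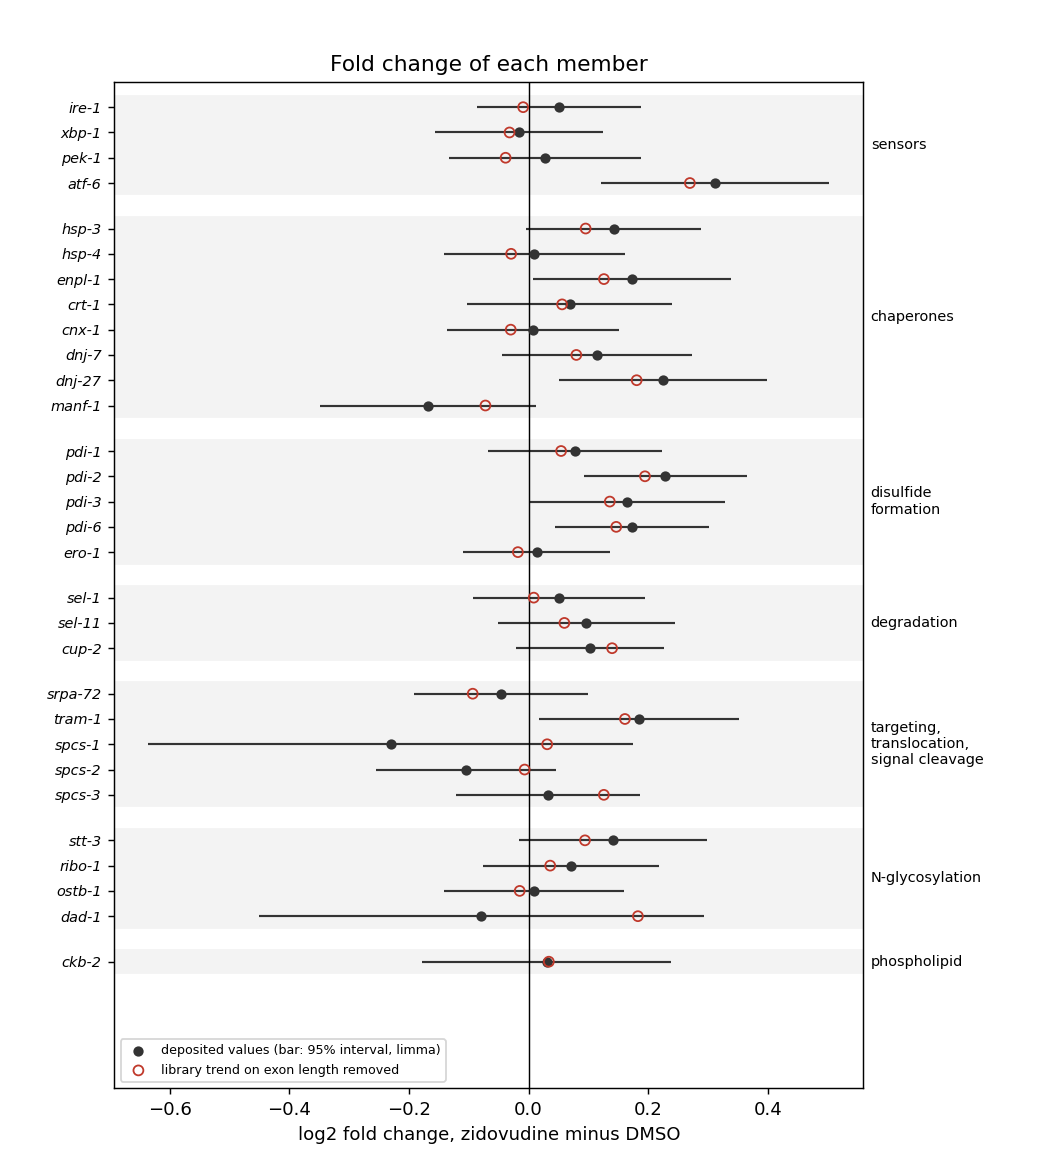
Log2 fold change (zidovudine minus DMSO) of each member, grouped by role. Black points with bars are the deposited values with 95% intervals from limma, and red circles are the values after each library's trend on exon length was removed. The intervals of 7 members lie above 0, with atf-6 farthest at 0.31, and removal of the trend moves dad-1 from -0.079 to 0.18.

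In the degradation of misfolded proteins all 3 members had a log2 fold change above 0, with a median of 0.096 and adjusted p from 0.512 to 0.779 (limma). With the length trend described below removed the median was 0.060, again with all 3 above 0. CUP-2, a Derlin-family protein that takes part in moving misfolded proteins out of the lumen, was encoded by the gene with the smallest p and the highest level per length. cup-2 was at 6.63, 6.72, 6.71 and 6.69 log2 CPM with DMSO and at 6.71, 6.80, 6.80 and 6.85 with zidovudine. Zidovudine 1 lay at the upper edge of the DMSO libraries and the other 3 above them, with a log2 fold change of 0.10 (SE 0.058; limma unadjusted p = 0.0968). sel-11, which encodes the ubiquitin ligase HRD1, and sel-1, which encodes its partner HRD3, had overlapping groups and log2 fold changes of 0.096 and 0.051.

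In targeting, translocation and signal peptide cleavage, 2 of 5 members were above 0 and the median was -0.046. The median was -0.014 without DMSO 4, and with the length trend described below removed it was 0.031, with 3 of 5 above 0. TRAM-1 is a membrane protein next to the translocon. tram-1 (chromosome IV, 10219373 to 10221287) was at 7.49, 7.73, 7.65 and 7.40 log2 CPM with DMSO and at 7.63, 7.70, 7.84 and 7.84 with zidovudine, with zidovudine 1 and 2 within the DMSO range. Its log2 fold change was 0.18 (SE 0.079, 95% interval 0.017 to 0.35; limma unadjusted p = 0.0327, adjusted p = 0.383), and 0.13 without DMSO 4. srpa-72, for a protein of the signal recognition particle, which brings ribosomes to the membrane, had a log2 fold change of -0.046.

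The signal peptidase subunit genes gave spcs-1 -0.23, spcs-2 -0.10 and spcs-3 0.032 as log2 fold changes, with limma adjusted p from 0.577 to 0.876. spcs-1 was at 5.85, 5.93, 5.58 and 6.15 log2 CPM with DMSO and at 5.84, 5.99, 5.45 and 5.32 with zidovudine. Zidovudine 1 and 2 lay within the DMSO range and zidovudine 3 and 4 below it. spcs-2, the member of this role with the highest level per length, was at 7.31, 7.54, 7.49 and 7.64 with DMSO and 7.34, 7.47, 7.39 and 7.37 with zidovudine. Its zidovudine values all lay inside the DMSO range.

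N-glycosylation is carried out by the oligosaccharyltransferase, of which stt-3 encodes the catalytic subunit and ribo-1, ostb-1 and dad-1 accessory subunits. stt-3 was at 8.42, 8.57, 8.58 and 8.35 log2 CPM with DMSO and at 8.55, 8.53, 8.69 and 8.73 with zidovudine, with zidovudine 1 and 2 within the DMSO range. Its log2 fold change was 0.14 (SE 0.074; limma unadjusted p = 0.0744, adjusted p = 0.474). ribo-1, the member of this role with the highest level per length, was at 8.72, 8.77, 8.75 and 8.65 with DMSO and at 8.80, 8.65, 8.81 and 8.92 with zidovudine. Zidovudine 2 was near the lowest DMSO library and the other 3 above all DMSO libraries, with a log2 fold change of 0.071 (limma adjusted p = 0.691). ostb-1 was at 8.01 to 8.23 with DMSO and 7.999 to 8.24 with zidovudine, a log2 fold change of 0.0094. dad-1 was at 6.37, 6.31, 6.20 and 6.32 with DMSO and at 6.25, 6.71, 6.06 and 5.87 with zidovudine. Its DMSO libraries lay close together and its zidovudine libraries on both sides of them, with an SD of 0.36 against 0.070 and a log2 fold change of -0.079 (95% interval -0.45 to 0.29; limma adjusted p = 0.866).

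ckb-2, a choline kinase gene of phosphatidylcholine synthesis, was at 4.19, 4.00, 4.04 and 3.84 log2 CPM with DMSO. With zidovudine it was at 4.02, 4.09, 4.08 and 4.00, inside the DMSO range. Its log2 fold change was 0.030 (95% interval -0.18 to 0.24; limma adjusted p = 0.922).

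Exon length moved with the fold change, in these members and in all genes. The 6 members with under 1000 nt of exon (spcs-1, dad-1, spcs-2, manf-1, spcs-3 and cup-2) had 2 log2 fold changes above 0 and a median of -0.092, while the 24 longer members had 22 above 0 and a median of 0.075. Over all genes tested the median was -0.34 for the 678 genes under 500 nt, the class of spcs-1 and dad-1 (476 nt each), and -0.067 for genes from 500 to under 1000 nt. It was 0.032 for genes from 1500 to under 2000 nt, where the median of 9 members was 0.11 and 7 of them were above the class median. It was 0.043 for genes from 2000 to under 3000 nt, where the median of 10 members was 0.12 and 7 were above. In the other classes, 0 of 2 members of 3000 nt or more (ire-1 and pek-1) were above the class median of 0.072. Above their own class medians were 2 of 4 members from 500 to under 1000 nt, 2 of 3 from 1000 to under 1500 nt and 2 of 2 under 500 nt. As a description across genes, which share their libraries, Spearman's rho between exon length and log2 fold change was 0.366 over 12376 genes and 0.405 over the 30 members.

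With the trend of each library on exon length removed, the zidovudine libraries lay closer together in spcs-1 and dad-1. Their SD went from 0.36 to 0.053 log2 CPM in dad-1 and from 0.32 to 0.093 in spcs-1. Among the DMSO libraries the SD of spcs-1 went from 0.24 to 0.10, but that of dad-1 grew from 0.070 to 0.15, with DMSO 4 lowest. dad-1 was then at 6.27, 6.22, 6.23 and 5.94 with DMSO and at 6.30, 6.38, 6.40 and 6.31 with zidovudine, without overlap, and its log2 fold change was 0.18 (limma unadjusted p = 0.0229, adjusted p = 0.325). That of spcs-1 was 0.031. The log2 fold changes of pdi-2 and atf-6 were 0.19 and 0.27 and those of dnj-27 and pdi-6 0.18 and 0.15, and pdi-6 then overlapped between groups. The members without overlap were atf-6, dnj-27, pdi-2 and dad-1, 4 higher (3.56% of all genes) and 0 lower (3.81%). Removal of the trend left 20 members above 0, against 50.6% of all genes, with a median of 0.055. At an unadjusted p under 0.05 there were then 9 members above 0 (6.09% of all genes) and 0 below (6.08%), and 0 members passed after adjustment, where 0.0808% of all genes were called higher and 0.129% lower.

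**Figure D4:**
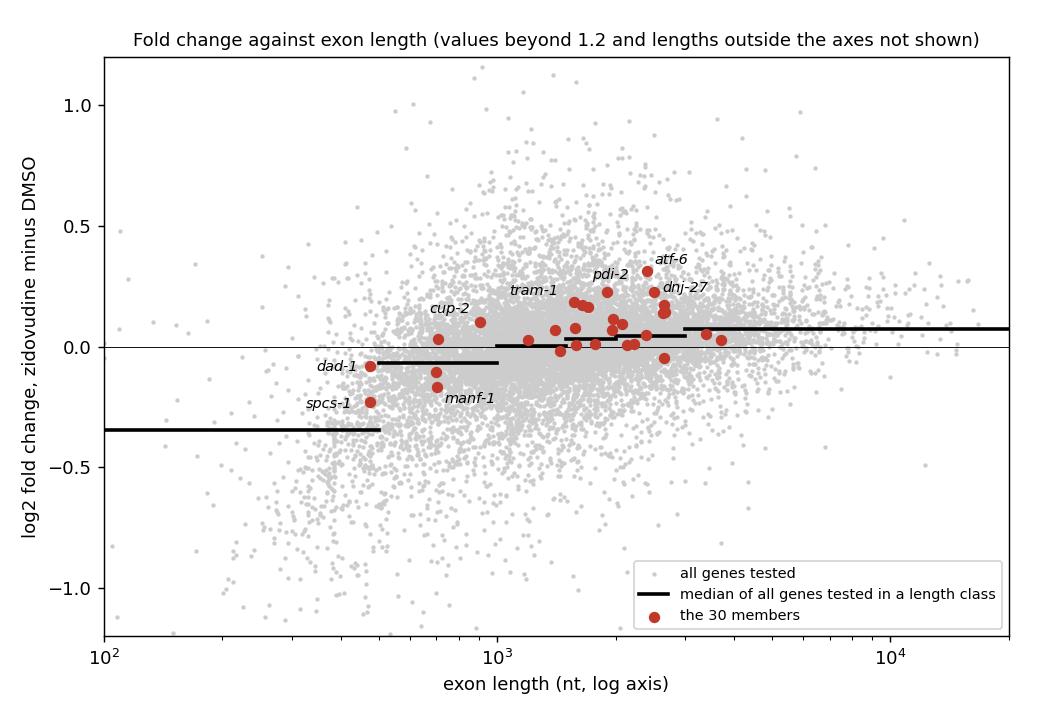
Log2 fold change (zidovudine minus DMSO) against exon length in nt on a log axis, for all genes tested (grey), the 30 members (red) and the median of all genes in each length class (black bars); 35 genes of 12376 outside the axes are not drawn. The median runs from -0.34 under 500 nt to 0.072 at 3000 nt or more, and atf-6, pdi-2 and dnj-27 lie above the medians of their classes.

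Other genes of the secretory pathway, from lists written for this purpose, did not pass the test either. In 9 lists, limma called 0 genes at an adjusted p under 0.05 in any direction. Over all genes tested, 6.28% were higher and 5.48% lower at an unadjusted limma p under 0.05, the shares to set beside the list counts below. Among 12 other targeting, translocation and oligosaccharyltransferase genes, 8 were above 0 with a median of 0.035 (0.056 without DMSO 4, 0.14 with the length trend removed), and 2 higher and 0 lower had an unadjusted p under 0.05. These were the translocon-associated protein genes trap-2 and trap-1. trap-2 was at 6.61 to 6.77 log2 CPM with DMSO and 6.82 to 7.004 with zidovudine, without overlap (log2 fold change 0.22, SE 0.065; limma unadjusted p = 0.00399, adjusted p = 0.212). trap-1 was at 7.78 to 8.04 and 7.99 to 8.24 (0.17 as log2 fold change).

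Of 14 other folding factors of the lumen, 3 higher and 0 lower had an unadjusted p under 0.05 (limma). One factor, uggt-2, reached the level tested only through the zidovudine libraries (mean -0.10 log2 CPM with DMSO, 0.64 with zidovudine). It is not among those 3, and no count above 0 or median over this list is given. The smallest p were those of the peptidyl-prolyl isomerase gene fkb-5 (log2 fold change 0.28, SE 0.10) and of uggt-1, for the glucosyltransferase that checks glycoprotein folding (0.16, SE 0.065). With the length trend removed their log2 fold changes were 0.30 and 0.074. Of 20 other degradation genes, 11 were above 0 (median 0.049, or 0.0097 without DMSO 4 and 0.018 with the length trend removed). At an unadjusted limma p under 0.05 there were 1 higher and 1 lower. The lower was ubc-15, a ubiquitin-conjugating enzyme gene, at a log2 fold change of -0.35 (limma unadjusted p = 0.0172). The higher was C47E12.3 at 0.17 (limma unadjusted p = 0.0396). The 15 genes for N-glycan precursor enzymes had 7 above 0 and a median of -0.0035 (0.018 without DMSO 4, 0.026 with the length trend removed), with 0 at an unadjusted p under 0.05. Among them, algn-11 lay wholly below DMSO, as 2.82% of the genes tested did. It was at 7.1713 to 7.43 log2 CPM with DMSO and 7.13 to 7.1705 with zidovudine (log2 fold change -0.10, limma unadjusted p = 0.139).

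Vesicle coat genes were described in the same way. Of 19 COPII genes, for export from the endoplasmic reticulum, 13 were above 0 (median 0.065, 0 at an unadjusted p under 0.05), and of 11 COPI and retrieval genes 10 were (median 0.085, 1 higher at an unadjusted p under 0.05). That gene was erd-2.2, for a receptor that returns proteins with a retrieval signal, at 0.18 (SE 0.085; limma adjusted p = 0.417). Without DMSO 4 the COPI median was 0.033, and with the length trend removed 0.039. Of 3 collagen prolyl hydroxylase genes 1 was above 0, with a median of -0.012 (0.017 without DMSO 4, -0.042 with the length trend removed); dpy-18, for a catalytic subunit that works with PDI-2, had a log2 fold change of 0.13 (SE 0.097) and phy-3 of -0.38 (SE 0.29).

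The abu and pqn genes, described in the worm as raised when the unfolded protein response is blocked, were at low levels, and 8 of the 14 in the table reached the level tested. Some of those reached it only through the zidovudine libraries, so no count or median over them is given. abu-14 was at 1.195 to 1.78 log2 CPM with DMSO and 1.86 to 2.34 with zidovudine, without overlap (log2 fold change 0.60, SE 0.18; limma unadjusted p = 0.00434, adjusted p = 0.216). abu-11 had a log2 fold change of 0.68 (SE 0.31; limma adjusted p = 0.415). The yolk protein genes, whose products are the main secretory cargo of the adult intestine, had 5 of 6 above 0 and a median of 0.041 (0.015 without DMSO 4, -0.048 with the length trend removed), with 0 at an unadjusted p under 0.05.

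Tissue markers also had fold changes away from 0, and their part in the members' values was not tested. The pharynx markers had 5 of 5 tested genes above 0 (median 0.34). The summed level of the 6 found, tested or not, was 91.8 to 106 CPM with DMSO and 117 to 146 with zidovudine, without overlap. Of 7 intestine markers 6 were above 0 (median 0.16, or 0.10 without DMSO 4), and their summed level overlapped, at 993 to 1263 CPM with DMSO and 1132 to 1402 with zidovudine. All 5 tested sperm markers were below 0 (median -0.32, or -0.17 with the length trend removed). The summed level of the 7 found, tested or not, was 41.2 to 51.5 CPM with DMSO and 28.8 to 39.6 with zidovudine, without overlap. The medians were 0.16 for body wall muscle (0.055 with the length trend removed), 0.090 for germ line and oocyte (0.046 without DMSO 4, 0.045 with the trend removed), 0.11 for neurons and -0.15 for hypodermis (-0.0097 without DMSO 4).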

How the data were processed

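Polyadenylated RNA of 8 whole-worm samples was sequenced, 4 with DMSO and 4 with zidovudine. The authors deposited 1 table of log2 CPM per gene and library, headed only as CPM; values below 0 in every column show the log scale. Tools in the submitters' processing notes, listed with no role, are limma 3.40.6, edgeR 3.26.8, HTSeq 0.11.0, HISAT2 2.1.0, Trimmomatic 0.32 and FastQC. For genome build, annotation and strand setting, none is given in the sources used here. On the linear scale 100% of the values were whole multiples of the worth of 1 read (within 0.05 reads) above a prior averaging 2 reads, which gave reads per gene. Replicates differed by 15.1 to 72.2 in chi-square per degree of freedom, so none repeated another.

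Genes averaging 0 log2 CPM or more were tested with limma-trend (limma 3.58.1, R 4.3.3, robust, two-sided, group as the only term), with Benjamini-Hochberg adjustment over all 12382 genes and a threshold of 0.05. The main fit was first run on simulated data with independent noise. Those data held no length trend and no shared library differences, so that check does not cover them. Exon lengths (union of exons) and positions came by gene ID from Ensembl release 115 on WBcel235. 11 symbols that had become dates were restored through the gene ID. The length trend was a lowess curve (span 0.3) of each library's deviations on log length. Lists were described by counts and medians. Values in all 8 libraries were given for the sensors, hsp-3, hsp-4 and pdi-2, and in each role for the members with the smallest p and the highest level per length; some others were added after their values were seen. The members, roles and lists were chosen with earlier results of these data known.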

Additional observations from a re-analysis of the deposited data

Results flagged for a closer look

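Among the 30 members, the highest and the lowest library of each group of 4 were compared with the nearest other library, relative to the range of the group. In 60 such groups, where chance gives about 3, 1 was set apart. In the zidovudine group, atf-6 was at 4.26 log2 CPM in zidovudine 2, while the other 3 were all at 4.33, and the gap to the nearest was 0.936 of the group's range. The value in zidovudine 2 was still above all DMSO libraries, of which the highest was at 4.102.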

How the results depend on the processing

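In 19 other settings, 0 members and 0 genes of the other pathway lists were called. Of the members, 16 stayed above 0 and 2 below 0 in every setting. The share of all genes that kept their sign was not computed. All settings draw on the same libraries, so they are not separate evidence. atf-6, pdi-2 and pdi-6 had an unadjusted limma p under 0.05 in all 19 (log2 fold change 0.27 to 0.35, 0.19 to 0.26 and 0.14 to 0.22). dnj-27 had it in 18 (0.16 to 0.26). The lack of overlap of atf-6 and pdi-2 could not change where libraries were left out or the values stayed the same. It is therefore no separate result there. The members' median stayed between 0.039 and 0.098 when 1 library was left out. Genes called higher and lower over the whole table were 7 and 14; they were 74 and 74 with sample quality weights, 49 and 107 without DMSO 4 and zidovudine 2 together, 2 and 2 without the trend, and 1 and 8 with the replicate block. Called lower were 7 with quantile normalization, 7 with library totals as the only scaling and 8 with a minimum of 1 log2 CPM. Leaving out 1 library gave 1 to 17 higher and 3 to 28 lower. Members at an unadjusted p under 0.05 were 4 higher without the trend (5.8% of all genes), 1 lower with quality weights (7.78%), 2 lower without DMSO 4 and zidovudine 2 (9.67%), and 4 to 9 higher and 0 to 3 lower without 1 library; the 9 (7.63%) and the 3 (10.1%) were without zidovudine 2. Without DMSO 4 and zidovudine 2, 10 members lay wholly above DMSO (10.6% of all genes) and 1 wholly below (10.1%). The chaperone median was then 0.17, above the 0.16 of disulfide formation. Without zidovudine 2, 7 members lay wholly above (8.46%) and 1 wholly below (8.02%), and without DMSO 1, 1 lay wholly below (4.51%). With 1 library left out, 4 to 7 lay wholly above, a count that cannot fall under the 4 of all 8 libraries. The causes were not tested.

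Of the members, 12 changed sign in some setting, each without a call. With the length trend removed the log2 fold changes were -0.0090 for ire-1, -0.038 for pek-1, -0.029 for hsp-4, -0.030 for cnx-1, -0.018 for ero-1, 0.031 for spcs-1, -0.015 for ostb-1 and 0.18 for dad-1. With quantile normalization they were -0.0056 for hsp-4, -0.0051 for cnx-1 and -0.0090 for ostb-1, and with library totals -0.0015 for cnx-1. Quality weights gave 0.0086 for xbp-1 and -0.0018 for ckb-2. Without DMSO 4 and zidovudine 2 the values were 0.027 for xbp-1, 0.010 for srpa-72, -0.0030 for spcs-3 and -0.045 for ckb-2. With 1 library left out the ranges were -0.051 to 0.026 for xbp-1, -0.030 to 0.071 for pek-1, -0.044 to 0.057 for hsp-4, -0.020 to 0.066 for cnx-1, -0.0082 to 0.040 for ero-1, -0.017 to 0.068 for spcs-3, -0.032 to 0.056 for ostb-1, -0.24 to 0.040 for dad-1 and -0.031 to 0.088 for ckb-2. Same-numbered libraries correlated at 0.067, -0.18, 0.14 and -0.32 in their deviations. These values cannot decide whether the numbers pair the samples, because library differences such as the flow cell of DMSO 4 also enter them. The labels do not say. The replicate block called 0 members, with a limma adjusted p of 0.353 for atf-6 and 0.365 for pdi-2.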
